A study of Homo sapiens with 6 samples.

Results

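Bivalent regions, stretches of chromatin that carry both an activating and a repressive histone mark, were collected from D283 tumorspheres as the places where all 4 deposited peak lists met. A member is a peak of H3K4me3 (trimethylation of lysine 4 on histone H3) from OTX2high cells, on chromosomes 1 to 22 and X, that is overlapped by at least 1 bp by an H3K4me3 peak of OTX2low cells and by a peak of each of the 2 lists of H3K27me3 (trimethylation of lysine 27). The rule found 2179 members. They were 6.72% of the 32449 OTX2high peaks of H3K4me3 and 10.1% of the 21665 such peaks that OTX2low cells shared. The members were chosen by the measured peak calls of these libraries, so the presence of both marks in all of them, and any peak value from these lists, is a description with no test.

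H3K4me3 is laid down by Trithorax-group methyltransferases at the promoters of active and poised genes, and H3K27me3 by Polycomb repressive complex 2 at silenced ones. Promoters with both marks were first described in embryonic stem cells, where they sit over CpG islands at developmental regulators that are kept silent but can be switched on when the cell commits to a lineage. As neural cells differentiate, many such promoters lose either mark.

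D283 is an established cell line of Group 3 medulloblastoma, a childhood tumor of the cerebellum. OTX2, a homeodomain transcription factor abundant in these tumors, was silenced in OTX2low cells with an siRNA at 30 nM, and OTX2high cells received a scramble siRNA at the same dose; both were grown as tumorspheres in neural precursor medium. Each mark had 1 library per condition, so no difference between conditions has a replicate check. Since siRNA acts on the RNA, the marks do not measure the knockdown. After filtering, the H3K4me3 libraries held 20914582 tags in OTX2low and 33137731 in OTX2high, and the H3K27me3 libraries held 33885628 tags in the one labelled OTX2low and 40271458 in the one labelled OTX2high. The headers of both H3K27me3 lists name the opposite condition to their labels, which does not touch the choice of members. These lists are called by their labels below, and the 2 IgG libraries, whose own labels conflict, were placed in no group.

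The promoters of 4 member genes are printed here, chosen by the extremes of what was measured at their members. Each runs from 250 bases before to 50 bases after the RefSeq gene start (GRCh38.p14), is written 5′ to 3′ on the gene's strand, and has every CpG in capitals. LHX4, a LIM homeobox factor of motor neurons and pituitary, had the tallest H3K4me3 peak among the developmental factors and a large H3K27me3 difference. BARHL1, a homeobox factor of cerebellar granule neurons, had the largest H3K4me3 ratio toward OTX2low among genes with a printable promoter, and PPP2R2C, a regulatory subunit of protein phosphatase PP2A, the largest toward OTX2high. The stretch compared at PPP2R2C met only part of its member. RHOU, a small GTPase, starts inside the widest member.
LHX4 (chr1:180230014-180230313, plus strand): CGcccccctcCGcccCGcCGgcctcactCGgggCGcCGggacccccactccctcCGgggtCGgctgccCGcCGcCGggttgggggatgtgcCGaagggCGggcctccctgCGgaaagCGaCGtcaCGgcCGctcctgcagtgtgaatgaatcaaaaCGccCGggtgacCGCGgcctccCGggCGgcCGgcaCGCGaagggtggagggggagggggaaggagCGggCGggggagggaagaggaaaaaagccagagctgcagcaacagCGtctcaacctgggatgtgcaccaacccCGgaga
BARHL1 (chr9:132582356-132582655, plus strand): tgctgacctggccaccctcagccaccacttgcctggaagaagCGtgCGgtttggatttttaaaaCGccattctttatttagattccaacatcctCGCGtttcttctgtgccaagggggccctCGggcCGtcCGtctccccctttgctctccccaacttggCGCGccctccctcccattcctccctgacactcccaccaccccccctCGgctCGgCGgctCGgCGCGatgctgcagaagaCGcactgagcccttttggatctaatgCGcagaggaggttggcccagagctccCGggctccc
PPP2R2C (chr4:6472565-6472864, minus strand): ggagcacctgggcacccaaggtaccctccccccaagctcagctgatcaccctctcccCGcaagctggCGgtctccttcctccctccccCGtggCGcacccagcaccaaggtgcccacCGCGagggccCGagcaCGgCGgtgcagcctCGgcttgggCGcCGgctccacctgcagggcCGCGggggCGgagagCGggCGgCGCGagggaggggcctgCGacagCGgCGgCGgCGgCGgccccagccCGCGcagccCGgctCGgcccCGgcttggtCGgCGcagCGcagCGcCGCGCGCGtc
RHOU (chr1:228644397-228644696, plus strand): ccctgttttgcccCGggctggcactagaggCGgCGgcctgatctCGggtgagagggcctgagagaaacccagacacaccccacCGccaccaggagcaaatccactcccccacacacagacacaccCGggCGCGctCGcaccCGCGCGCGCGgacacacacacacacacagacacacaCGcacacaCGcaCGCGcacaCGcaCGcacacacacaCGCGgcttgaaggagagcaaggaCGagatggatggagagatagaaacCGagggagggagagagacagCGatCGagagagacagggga

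The LHX4 promoter held 32 CpG in its 300 bases, at a GC content of 72.7% and an observed over expected CpG ratio of 0.81. This ratio compares the CpG count with the count that the C and G content would give, and it is low in most of the human genome outside CpG islands. PPP2R2C had 38 CpG and a ratio of 0.82, BARHL1 19 CpG and a ratio of 0.70, and RHOU 26 CpG and a ratio of 0.85. The LHX4 and RHOU promoters lay inside their member, while those of BARHL1 and PPP2R2C lay outside it. In coordinate, the BARHL1 promoter began at 132582356 and its member ended at 132582255. The PPP2R2C promoter began at 6472565 and its member ended at 6471821.

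Members at coding gene starts were smaller than the other H3K4me3 peaks that both conditions shared there. At coding gene starts, taken as 2000 bp to either side of a RefSeq start, the 1035 members had a median width of 1454 bp, a median pileup of 58 fragments at the summit and a median fold enrichment over local background of 17.5 in OTX2high. The 13276 other H3K4me3 peaks that both conditions shared at coding gene starts had a median width of 2403 bp, a pileup of 144 fragments and an enrichment of 42.5. Pileups are fragment numbers of their own library and are not scaled between libraries. In a population of cells, both marks on one nucleosome and separate marks in different cells or alleles cannot be told apart.

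The marks overlapped but did not coincide. The H3K4me3 peaks of OTX2low covered a median of 89.1% of each member at a coding gene start, with the summit inside an OTX2low peak at 96.4% of them. H3K27me3 cover was a median of 24.6% in the list labelled OTX2low and 88.3% in the list labelled OTX2high. Per the file headers, the peak caller assumed fragments of 78 bp for the list labelled OTX2low and 169 bp for the list labelled OTX2high, and median peak widths over the whole lists were 139 and 332 bp in that order. The H3K4me3 summit lay inside H3K27me3 peaks of both lists at 269 of these members, and inside neither at 189 (18.3%). In the list labelled OTX2low, H3K27me3 peaks stood 250 bp before the H3K4me3 summit in coordinate at 22.8% of members and 750 bp before it at 34.3%. In the list labelled OTX2high these shares were 70.0% and 79.6%. At the summit itself the shares were 26.3% in the list labelled OTX2low and 81.4% in the list labelled OTX2high, and 250 bp after it 24.2% and 68.6%, so both lists were lower 250 bp to either side of the summit than at the summit. H3K27me3 thus reached further out than H3K4me3: 5000 bp beyond the summit, 12.8% of members still carried H3K27me3 in the list labelled OTX2low and 42.5% in the list labelled OTX2high, while 4.06% had an H3K4me3 peak of OTX2low there.

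**Figure D1:**
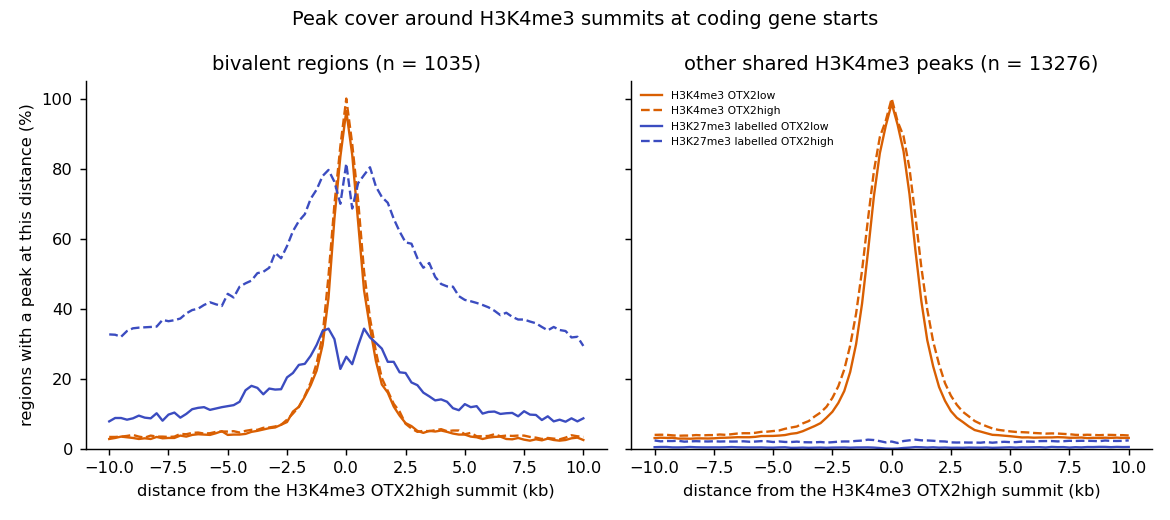
Share of regions with a peak at each distance (kb) from the H3K4me3 OTX2high summit, for the 1035 bivalent regions and the 13276 other shared peaks at coding gene starts; lines are the 4 peak lists. H3K27me3 stands at 26.3% and 81.4% at the summit in the lists labelled OTX2low and OTX2high, is lower 250 bp to either side, and extends beyond the narrow H3K4me3 peak; the near-zero H3K27me3 lines at right follow from the rule.

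The overlap rule cut through a continuum. The smallest of a member's 3 overlaps had a median of 245 bp and was under 20 bp at 35 members. The member at chr9:77019817-77020016, 1 of 3 at the forkhead gene FOXB2, was included by 1 bp. Members at ERICH2 and IRX2, an Iroquois homeobox gene, were included by 2 bp. A peak at NCAN, which encodes the brain proteoglycan neurocan, missed by a gap of 1 bp and a peak at TMEM74B by 2 bp. In all 5 cases the list labelled OTX2low decided. Of 1880 peaks that missed 1 list only, 239 had a gap of at most 200 bp.

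Members lay both at genes and away from them. A coding gene start was touched by 1035 members (47.5%, 95% exact interval 45.4 to 49.6%), against 68.1% of the other shared H3K4me3 peaks. No annotated gene start of any kind lay at 740 members (34.0%), against 22.1% of the other shared peaks, and a pseudogene start lay at 211 (9.68%), against 5.77%. Intervals of this kind cover counting error only, since PCR copies and neighbouring peaks are not independent.

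Part of the members lay where the IgG control itself was high. The local background, which the pileup and fold enrichment of each peak imply, exceeded 3 times the genome-wide value of 2.32 fragments at 321 members (14.7%), against 1.51% of the other shared peaks. These members had a median background of 64.5 fragments and a median enrichment of 2.24 in OTX2high. Only 3 of them touched a coding gene start, namely RHOU and, with 2 members, LOC101929601. The fullest megabase held 101 members, on chromosome 21 between 8194185 and 8988781, of which 97 had a raised background; the gene table lists 12 ribosomal RNA genes there, copies of the 45S unit and its products. On chromosome 1 between 143184578 and 143905967 lay 41 members, 37 with a raised background, and on chromosome 4 between 49091791 and 49709590 lay 40, of which 39 had one. These 3 places held 182 members, 8.35% of all and 53.9% of those with a raised background. The widest member, at chr1:228608268-228648597, spans 17 genes for 5S ribosomal RNA and the start of RHOU, with a background of 32.8 fragments. Its H3K4me3 pileup was 188 in OTX2low and 228 in OTX2high, and its H3K27me3 pileup 56 and 88 in the lists labelled OTX2low and OTX2high. Multicopy sequences of this kind share reads, so their peaks cannot be assigned to 1 copy with certainty.

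**Figure D2:**
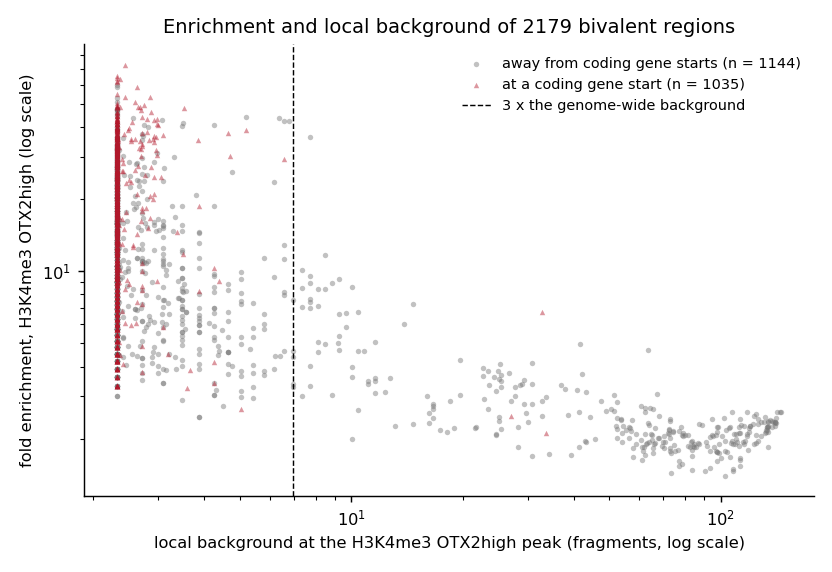
Fold enrichment of the H3K4me3 OTX2high peak against its local background (fragments), both on log scales, for the 2179 members; red triangles touch a coding gene start, grey circles do not, and the dashed line marks 3 times the genome-wide background. To the right of it lie 321 members with a median enrichment of 2.24, of which 3 are at coding gene starts.

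The members were unevenly spread over chromosomes. Among shared H3K4me3 peaks at coding gene starts, the share that were members was 15.9% on chromosome 13 (41 of 258; 95% exact interval 11.7 to 20.9%) and 13.3% on chromosome 20 (52 of 392). It was 0.541% on chromosome 7 (4 of 739; 0.148 to 1.38%) and 0.346% on chromosome X (2 of 578; 0.0419 to 1.24%). These 2 chromosomes also had the shortest H3K27me3 lists of their label. Chromosome 7 had 394 H3K27me3 peaks in the list labelled OTX2low and 2427 in the list labelled OTX2high, and X had 500 and 1911.

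Developmental regulators were frequent among the member genes. In all, 961 of 19970 protein-coding genes had a member at their start, 4.81%, or 6.97% of the 13788 genes whose start had any shared H3K4me3 peak (69% of all). Of 342 developmental transcription factors in 10 lists, 101 did (29.5%, 95% exact interval 24.7 to 34.7%), although they carried a shared H3K4me3 peak about as often as other genes, at 70.2%. Both H3K27me3 lists had a peak at 157 of these 342 genes, against 2452 of all 19970. The share was 33 of 147 for genes of the Wnt, BMP, Hedgehog, FGF and Notch pathways (22.4%), 22 of 88 for ion channels and transmitter receptors (25%), 11 of 71 for axon guidance genes (15.5%) and 8 of 36 for genes of immature neurons (22.2%). Members were not found at any of 29 housekeeping, 49 ribosomal protein or 30 photoreceptor genes; these counts of 0 have upper exact bounds of 11.9%, 7.25% and 11.6%. Of the 961 genes, 831 had a single member. GATA3, the zinc finger factor of T cells and sensory neurons, had 5, and CRMP1, a mediator of semaphorin signals in growing axons, had 4.

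**Figure D3:**
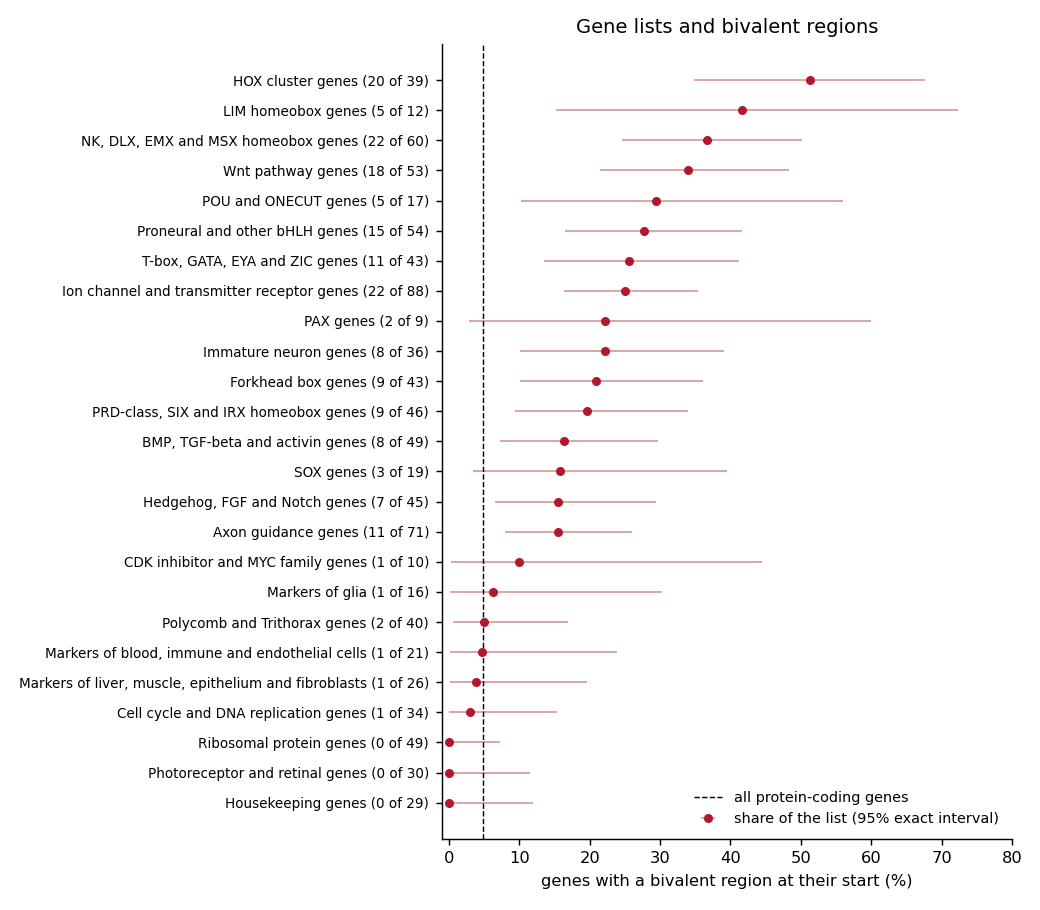
Share of each of 25 gene lists (percent, points, with 95% exact intervals) that had a bivalent region at a gene start, with the counts in the labels; the dashed line is the 4.81% of all protein-coding genes. HOX, LIM, NK and Wnt lists lie highest and housekeeping, ribosomal protein and photoreceptor lists are at 0.

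Several members often lay close together along a gene or gene cluster. At GATA3 the members spanned chr10:8045050-8055321, with H3K4me3 pileups of 8 to 53 in OTX2low and 12 to 63 in OTX2high, under H3K27me3 with a pileup of 40 in the list labelled OTX2high at each. CRMP1 had pileups of 21 to 32 in OTX2low and 18 to 30 in OTX2high. FEZF2, a zinc finger factor of forebrain neurons, had 3 members with 29 to 35 in OTX2low and 38 to 43 in OTX2high. Near the end of chromosome 16, 12 members lay between 154247 and 983028, and 11 of them were at coding gene starts, among which the alpha-globin genes HBZ, HBM, HBA2 and HBA1; the last pair are near-identical copies. On chromosome 19, 22 members lay between 50095730 and 50836505, near the synaptic scaffold gene SHANK1, the vesicle gene SYT3 and the kallikrein genes KLK1 and KLK15. A second group of 15 members between 55069277 and 55453037 included SYT5 and the troponin gene TNNI3.

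The HOX clusters, which set position along the body axis, differed from one another. All 9 HOXC genes had a member at their start, as did 5 of 10 HOXB genes (HOXB2, HOXB7, HOXB8, HOXB9 and HOXB13) and 5 of 9 HOXD genes (HOXD1, HOXD8, HOXD9, HOXD11 and HOXD13). The HOXA cluster lies on chromosome 7. H3K27me3 peaks of the lists labelled OTX2low and OTX2high covered 4.05% and 29.1% of HOXA, against 64.5% and 94.5% of HOXB. HOXB in turn had little H3K4me3, with 1.63% of the cluster covered in OTX2low and 2.54% in OTX2high. Cover by H3K4me3 was 16.1% in OTX2low and 19.2% in OTX2high at HOXC, where H3K27me3 covered 37.0% and 74.2% in the lists labelled OTX2low and OTX2high. The tallest HOX member was at HOXC9 (chr12:53999261-54001922), with H3K4me3 pileups of 65 in OTX2low and 125 in OTX2high and H3K27me3 pileups of 9 and 21. H3K4me3 pileups were lower on both sides of HOXC9. On the 3′ side, HOXC8 had H3K4me3 pileups of 32 in OTX2low and 74 in OTX2high and H3K27me3 pileups of 8 and 19, and the 2 members that lie at HOXC4, HOXC5 and HOXC6 had 26 and 29 for H3K4me3 in OTX2high. On the 5′ side, HOXC10 had H3K4me3 pileups of 28 and 47 and H3K27me3 pileups of 12 and 30, HOXC11 had 11 and 21 with 12 and 33, and HOXC13 had 15 and 13 with 16 and 33, each pair in the order OTX2low and OTX2high.

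Members at other homeobox and basic helix-loop-helix factors of the nervous system ranged widely in H3K4me3. At LHX4 the member (chr1:180228910-180234117) had H3K4me3 pileups of 97 in OTX2low and 216 in OTX2high, and H3K27me3 pileups of 15 and 48 in the lists labelled OTX2low and OTX2high. NEUROG2, a proneural factor that starts neuronal differentiation, had H3K4me3 pileups of 71 in OTX2low and 129 in OTX2high, with H3K27me3 pileups of 11 and 35. ATOH1, the proneural factor of cerebellar granule cell progenitors, had 69 in OTX2low and 118 in OTX2high, with 9 and 24. The H3K27me3 peaks covered 2.67% of the ATOH1 member in the list labelled OTX2low and 60.3% in the list labelled OTX2high, so this member rests on a short overlap. Other members named in this report do too. Cover in the list labelled OTX2low was 1.37% at NUDT4, 1.68% at FZD8, 2.38% at POU3F1 and 2.41% at WNT9A. In the list labelled OTX2high it was 2.52%, 7.20%, 46.6% and 23.2% in that order. LHX1, a LIM factor of Purkinje cells, was covered over 93.4% and 100% of its width. PAX6, a paired-box factor of eye and granule cell progenitors, had 3 members, the tallest with H3K4me3 pileups of 43 in OTX2low and 80 in OTX2high. Members were also at DLX2, RAX, POU3F1, OLIG1, OLIG2, SOX21, FOXC1, ZIC2 and TFAP2A, with H3K4me3 pileups in OTX2high between 81 and 152.

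Signalling members included ligands, receptors and antagonists. Wnt ligands with a member were WNT1, WNT3A, WNT4, WNT6, WNT7A, WNT7B, WNT9A, WNT9B and WNT10B, alongside the receptors FZD8 and FZD10, the agonists RSPO1 and RSPO2 and the antagonists SFRP1, SFRP5, DKK2 and WIF1. RSPO2, which amplifies Wnt signals, had H3K4me3 pileups of 121 in OTX2low and 171 in OTX2high. The Notch ligand DLL1 had 52 in OTX2low and 93 in OTX2high, and the receptor NOTCH2, which has partial copies that may share reads, 120 and 175. Genes of growth control were at members about as often as all coding genes, with 1 of 34 cell cycle and DNA replication genes (2.94%), 1 of 10 CDK inhibitor and MYC family genes and 2 of 40 Polycomb and Trithorax genes (5%). Members lay at the cyclin gene CCND1, at CDKN2A, which encodes cell cycle inhibitors, and at BMI1, a subunit of Polycomb repressive complex 1. The BMI1 member had H3K4me3 pileups of 104 in OTX2low and 203 in OTX2high, with H3K27me3 pileups of 7 and 23 in the lists labelled OTX2low and OTX2high. Over all members at coding gene starts the median H3K27me3 pileups were 11 and 30, above those of BMI1.

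Ion channel members lay at voltage-gated calcium and potassium channels and at glutamate receptors. CACNA1C, an L-type calcium channel, had H3K4me3 pileups of 64 in OTX2low and 114 in OTX2high, and CACNA1G, a T-type channel, 51 and 100. GRIK3 and GRM7, a kainate and a metabotropic glutamate receptor, had pileups of 36 and 109 at GRIK3 and 67 and 102 at GRM7, in the same order. Among the BMP and TGF-beta genes, GDF6, a BMP-type ligand, combined tall peaks of both marks, with H3K4me3 pileups of 112 in OTX2low and 170 in OTX2high and H3K27me3 pileups of 30 and 77 in the lists labelled OTX2low and OTX2high. GREM1, a secreted BMP antagonist, had 69 and 106 for H3K4me3 and 10 and 23 for H3K27me3. The highest H3K27me3 pileups at coding gene starts, beside RHOU, were at multicopy genes, with 48 at LOC101929601 and 41 at FAM90A24 in the list labelled OTX2low; FAM90A22 and FAM90A23 followed, and near-identical copies make these values uncertain.

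The genes that define Group 3 identity were not members. OTX2, CRX, NRL, IMPG2, EYS, MYC and NPR3 had H3K4me3 peaks in both conditions and no H3K27me3 peak at their starts in either list. PAX3 had H3K27me3 in both lists and no H3K4me3 peak. NHLH1, a neuronal bHLH factor, had an H3K4me3 peak in the OTX2low list alone. For other cell types, members lay at 1 of 21 markers of blood, immune and endothelial cells (the globin gene HBA1), 1 of 26 of liver, muscle, epithelium and fibroblasts (COL1A1) and 1 of 16 of glia (PDGFRA). These shares are close to the 4.81% of all coding genes.

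H3K4me3 between the conditions was described with the authors' deposited table of regions that differed between the 2 libraries (adjusted p under 0.05, 1 library against 1, computed on reads). Its fold changes are given here as OTX2low over OTX2high, the opposite sign to the table. The rule used peak calls from the same libraries, so the shares that follow are descriptions. In the authors' deposited table, 518 members (23.8%) touched regions higher in OTX2low only and 167 (7.66%) regions higher in OTX2high only. All H3K4me3 OTX2high peaks did so at 4.83% and 37.1%, and the 21665 shared peaks at 7.08% and 38.6%. Over all members the share higher in OTX2low was thus the larger one, unlike in the other peaks, but the regions of raised background carried much of this. Of the 321 members with a raised background, 274 (85.4%) touched regions higher in OTX2low only and 0 touched regions higher in OTX2high only, and without them the shares over the remaining 1858 members were 13.1% and 8.99%.

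At coding gene starts the 2 directions lay closer together. In the authors' deposited table, 150 of 1035 members there (14.5%, 95% exact interval 12.4 to 16.8%) were higher in OTX2low only and 116 (11.2%) in OTX2high only. Shared H3K4me3 peaks at coding gene starts were so in 5.02% and 48.2%. Tall peaks are called more easily than low ones, so members were also set beside other shared peaks in the same class of OTX2high height. That height is itself 1 side of the comparison, so the trend of either direction across classes cannot be read apart from it. The lowest class, up to 86 fragments, held 739 of the members, and heights were not matched within it. For pileups of 87 to 138 fragments in OTX2high, 16.1% of 236 members and 5.11% of 3305 other shared peaks had H3K4me3 higher in OTX2low only, by the authors' deposited table, and 22.5% of members and 45.2% of the others higher in OTX2high only. Members of this height, like the other peaks, were thus more often higher in OTX2high. Of 41 members with pileups of 139 to 175, 24.4% (95% exact interval 12.4 to 40.3%) were higher in OTX2low and 39.0% (24.2 to 55.5%) in OTX2high. The intervals of the 2 directions thus overlapped, as they did for 87 to 138 fragments (11.7 to 21.4% and 17.3 to 28.3%). Above 175 the shares were 5.26% and 52.6%, while members with pileups up to 86 were higher in OTX2low at 13.7% and in OTX2high at 5.01%. In the 4 height classes the share higher in OTX2low was 5.26 to 24.4% in members and 2.39 to 7.45% in the others, and the share higher in OTX2high 5.01 to 52.6% and 16.5 to 72.2%. In the class of 19 members above 175 fragments the intervals of members and other shared peaks overlapped in both directions.

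**Figure D4:**
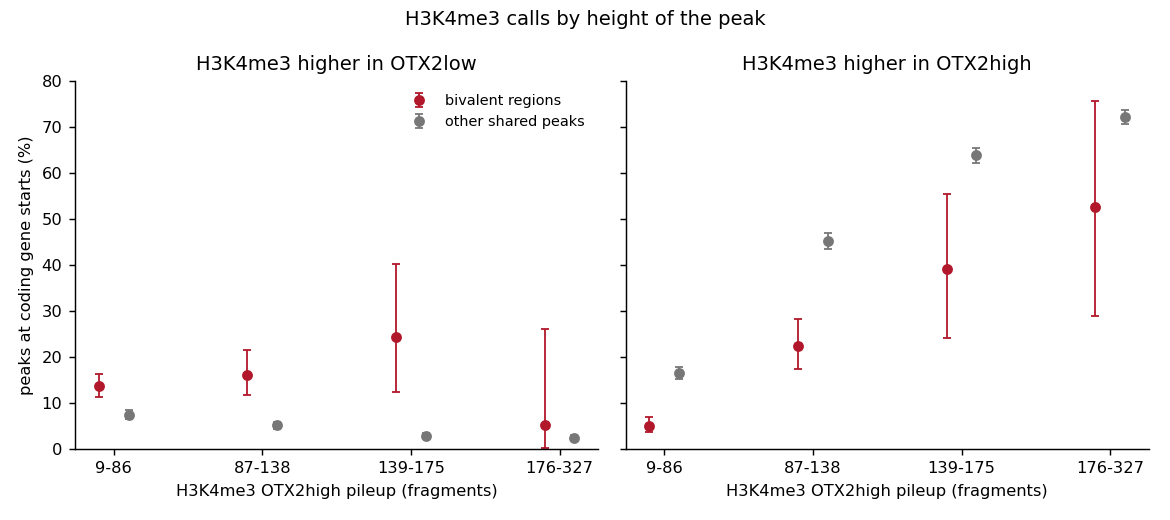
Share of H3K4me3 peaks at coding gene starts (percent, with 95% exact intervals) that touched only regions higher in OTX2low (left) or in OTX2high (right), by H3K4me3 OTX2high pileup in fragments, for bivalent regions (red) and other shared peaks (grey). In the class of 87 to 138 fragments 16.1% of bivalent regions and 5.11% of other shared peaks were higher in OTX2low.

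The members at genes of immature neurons had H3K4me3 on the OTX2low side. By the authors' deposited table, all 11 members at 8 such genes touched only regions higher in OTX2low, as did 14 of 29 other shared peaks at genes of the list, of which 5 touched only regions higher in OTX2high. The list was drawn up with earlier results of these data known, so its direction is no independent evidence, and the pairs of members at ELAVL3 and at RBFOX3 share a region each. ELAVL3, an RNA-binding protein of postmitotic neurons, had 1138 normalized reads in OTX2low and 411.6 in OTX2high in the authors' deposited table, a log2 ratio of 1.47. RBFOX3, the neuronal splicing factor known as NeuN, had 409.9 reads in OTX2low and 84.6 in OTX2high per the authors' deposited table, with a ratio of 2.28 (95% counting interval 1.96 to 2.61). INSM1 and SCRT1, zinc finger factors of newborn neurons, stood at ratios of 1.17 and 1.21 by the authors' deposited table, INA and STMN2, whose proteins act in the neuronal cytoskeleton, 0.63 and 0.48, and SCRT2 and NFASC 1.54 and 0.90. Their H3K27me3 did not move as one: 2 of the 11 members touched regions of higher H3K27me3 in the library the table names OTX2low, 1 in OTX2high and 8 none.

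Large H3K4me3 ratios toward OTX2low were also found at members of other genes. NPTXR, the neuronal pentraxin receptor of synapses, had 1682 normalized reads in OTX2low and 259.3 in OTX2high, per the authors' deposited table, the largest ratio at a coding gene start (2.70, 95% counting interval 2.52 to 2.88). BARHL1 had 354.8 reads in OTX2low and 72.6 in OTX2high in the authors' deposited table (2.29, 1.94 to 2.65). The splicing regulator NOVA2 had a ratio of 1.74, the protocadherin gene PCDH17 1.68, KIAA1755 1.65 and the adenylate cyclase gene ADCY8 1.53 in the authors' deposited table. The regions at PCDH17 and ADCY8 met only an edge of the member. At PCDH17 the region began at 57634401 and the member ended at 57634832. At ADCY8 the region ended at 131039600 and the member began at 131039441. The unscaled H3K4me3 pileups of these members were 69 in OTX2low and 114 in OTX2high at PCDH17, and 61 and 96 at ADCY8. OLIG2, a factor of oligodendrocyte and motor neuron precursors, had 1023 reads in OTX2low and 362.2 in OTX2high by the authors' deposited table. ONECUT1 had 302.1 and 110.9 reads in OTX2low and OTX2high, and PDGFRA, a receptor of oligodendrocyte precursors, 913.9 and 418.8, per the authors' deposited table.

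Toward OTX2high, H3K4me3 ratios at members included regions with few reads. PPP2R2C had 16.3 normalized reads in OTX2low and 62.2 in OTX2high by the authors' deposited table (-1.93 on the log2 scale, 95% counting interval -2.90 to -1.08). That region ran from 6471301 to 6473200 and the member ended at 6471821, so most of the region lay outside the member. The unscaled H3K4me3 pileups of the PPP2R2C member were 25 in OTX2low and 39 in OTX2high. CYP26A1, the enzyme that degrades retinoic acid, had 25.1 and 65.4 reads in OTX2low and OTX2high in the authors' deposited table (-1.38). Larger in reads were the activin subunit gene INHBB, with 492.6 in OTX2low and 1023 in OTX2high (-1.05), EPHB1, an ephrin receptor of axon guidance (435.0 and 872.7), and NUDT4 (1799 and 3574, -0.99), all from the authors' deposited table. Members at developmental transcription factors were higher in OTX2low at 12 and in OTX2high at 21 of 134, against 8 and 70 of 171 other shared peaks at such genes.

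For H3K27me3 the conditions are those that the differential table itself names. If the labels of the peak lists hold instead, each direction given here turns round. By the header names, the list labelled OTX2high is the library called OTX2low here, and the list labelled OTX2low the library called OTX2high. The list labelled OTX2low was called against 85840108 IgG tags, the number for H3K4me3 OTX2high. The list labelled OTX2high was called against 55079542, the number for H3K4me3 OTX2low. Which naming is right was not tested. In the authors' deposited table, 748 members (34.3%) touched regions with H3K27me3 higher in OTX2low only and 250 (11.5%) higher in OTX2high only. All H3K4me3 OTX2high peaks did so at 4.6% and 2.5%, the shared peaks at 5.62% and 3.06% and those at coding gene starts at 5.24% and 0.713%. At coding gene starts the members split into 454 (43.9%) and 17 (1.64%). The rule requires a peak of both H3K27me3 lists at every member, while 2433 of the 32449 OTX2high peaks of H3K4me3 had both. More H3K27me3 calls at members than at these wider sets thus follow at least in part from the rule, and the shares are descriptions. Shares among other peaks that carry H3K27me3 were not computed. Among the 134 members at developmental transcription factors, 91 (67.9%, 95% exact interval 59.3 to 75.7%) were higher in OTX2low and 1 in OTX2high, against 363 (40.3%) and 16 of the 901 members at other coding genes. The scan used windows of 10000 bp, so 1 region often spans several members: the 998 members with a call fell in 552 distinct regions, 501 higher in OTX2low and 51 in OTX2high.

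The H3K27me3 shifts were small and alike from gene to gene. The median log2 ratio at members of coding gene starts was 0.34 (95% interval of the median 0.33 to 0.34, n = 471), and the 10th and 90th percentiles were 0.28 and 0.43. Members in the same region share its ratio, so this interval is too narrow. Over the 366 distinct regions of these members the median was also 0.34, with percentiles of 0.28 and 0.44. Ratios exist only for called regions, which keeps them away from 0. The direction was not particular to members. Other shared peaks at coding gene starts with a called region had a median of 0.40 (n = 381). Of these, 77.7% were above 0, against 96.4% of the members, and their 10th and 90th percentiles were -0.67 and 0.66. DLL1 had 1516 normalized reads in OTX2low and 1005 in OTX2high by the authors' deposited table, a ratio of 0.59 and the largest among regions enriched at least 4-fold over IgG. LHX4 had 1985 and 1365 reads (0.54) and NEUROG2 1495 and 1042 (0.52) in OTX2low and OTX2high in the authors' deposited table. PAX6 had a ratio of 0.36, ZIC2 of 0.30 and HOXD9 of 0.33 there, per the authors' deposited table. NPTXR ran the other way for H3K27me3, with 481.0 and 658.6 H3K27me3 reads in OTX2low and OTX2high (-0.45) in the authors' deposited table. DLX3, a homeobox factor of epidermis and bone, had 411.9 and 611.7 (-0.57), and its H3K4me3 ratio was 1.10, from the authors' deposited table. The H3K27me3 region at DLX3 was enriched over IgG only 1.38-fold in OTX2low and 2.15-fold in OTX2high, short of the 4-fold limit. Of 441 distinct regions at members enriched at least 4-fold, 438 were higher in OTX2low. Of 31 enriched under 2-fold, 26 were higher in OTX2high.

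The marks did not change as mirror images. Of the 1035 members at coding gene starts, 53 were higher in OTX2low for both marks and 48 were higher in OTX2high for H3K4me3 and in OTX2low for H3K27me3. Another 352 had an H3K27me3 region higher in OTX2low and no H3K4me3 call, 7 were higher in OTX2low for H3K4me3 and in OTX2high for H3K27me3, and 403 had no call for either mark.

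The members of raised background had nearly equal reads in both conditions before scaling. In the 88 distinct H3K4me3 regions at these members, the median was 753.5 whole reads in OTX2low and 770 in OTX2high, and the median log2 ratio 0.60. Equal whole reads give a ratio of 0.65 on the scale of the authors' deposited table, because that table weights each OTX2low read by 1.25 and each OTX2high read by 0.798. For H3K27me3, 35 distinct regions at these members had medians of 5016 and 4763 reads in OTX2low and OTX2high and a ratio of -0.31, and equal reads give -0.39. Enrichment over IgG in these H3K27me3 regions was a median of 1.29 in OTX2low and 1.97 in OTX2high, against 6.25 and 4.99 in the regions at other members. The part of read scaling in the calls at these members was not tested.

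**Figure D5:**
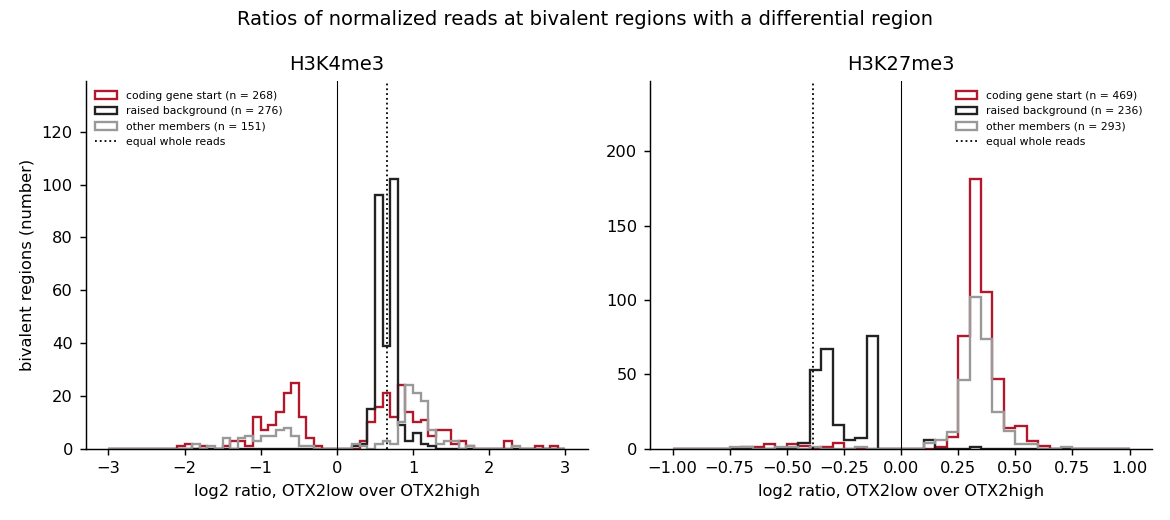
Distribution of log2 ratios of normalized reads, OTX2low over OTX2high, at bivalent regions with a differential region, for H3K4me3 (left) and H3K27me3 (right); lines separate members at coding gene starts, of raised background, and the others, and the dotted line is where equal whole reads fall. Raised-background members cluster near that line, at medians of 0.63 and -0.31, and H3K27me3 at coding gene starts at 0.34.

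Member promoters were nearly as CpG-rich as those of other H3K4me3 peaks. The rule did not use sequence. Across 692 member genes with a promoter in the RefSeq table, the median observed over expected CpG ratio was 0.82 (95% interval of the median 0.80 to 0.83) and the median GC content 70.3%. For the 10547 genes with another shared H3K4me3 peak the medians were 0.85 and 66.3%. Genes with H3K27me3 in both lists and no H3K4me3 peak, 768 in all, had a median ratio of 0.25, as had the 3571 genes with neither mark. A ratio of at least 0.6 was found in 84.0% of member promoters, 87.2% of other shared ones and 11.1% of those with H3K27me3 alone. Promoters on chromosome 8 were not used here.

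Of 6 short motifs searched, 3 had shares in member promoters whose intervals did not overlap those of other shared promoters. On either strand of the 300 bases, TAATCC, the core that OTX2-type homeodomains bind, occurred in 3.47% of member promoters, 4.24% of other shared ones and 5.28% of all 15811. CAGCTG, an E-box of proneural factors, occurred in 15.6% of member promoters, 16.4% of other shared ones and 17.6% of all, and CATCTG, another E-box, in 9.68%, 8.62% and 11.5%. CACGTG, the E-box of MYC, was in 6.50% (95% exact interval 4.78 to 8.60%) of member promoters, 10.1% (9.49 to 10.6%) of other shared ones and 8.65% of all. TATAAA, the TATA box, was in 7.95% (6.04 to 10.2%), 5.05% (4.64 to 5.49%) and 9.61%, and GGGCGG, the GC box, in 77.5% (74.2 to 80.5%), 73.2% (72.3 to 74.0%) and 59.2%. The GC box occurs in the LHX4 and PPP2R2C promoters printed above and CAGCTG in that of PPP2R2C, while BARHL1 holds none of the 6 motifs. A match is a string of letters, not a bound site.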

How the data were processed

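ChIP libraries of D283 tumorspheres were analysed from the deposited peak lists and differential tables. Reads were aligned and peaks called with Bowtie2 and MACS2, per the submitters' processing notes. The authors' peak lists, per the file headers, were called for each library on its own, with 1 IgG control and a q-value limit of 0.05, and give a pileup signal, −log10 p-value, −log10 q-value and fold enrichment ratio per peak. The authors' differential tables hold read signal scaled per library, ratios over IgG, log2 ratios, p-values and adjusted p-values from diffReps 1.55.6, per the file headers. Overlaps, gene starts and intervals were computed in Python with numpy, pandas and scipy, and tested on simulated data. Local background was (pileup + 1) / enrichment − 1. Differential scans stopped before 31 members for H3K4me3 and 51 for H3K27me3, at chromosome ends, and these count as uncalled. H3K4me3 reads were recovered as whole numbers for 100% of values within 0.05, and the G-test on them called all 21652 regions. The authors' calls came from the same test on the same reads, so this checks the recovery of reads and not the calls. Each member took the ratio of the region richest in reads. Gene starts came from RefSeq GRCh38.p14: 15811 coding genes by strand and 4159 by both ends. Genes were named by rank of pileup, width and ratio and by list, and some members are not reported here. The members and lists were chosen with earlier results of these data known.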

Additional observations from a re-analysis of the deposited data

How the results depend on the processing

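With 1 library per mark and condition no spread between replicates exists, and the effect of depth on low H3K27me3 peaks was not tested. No paired analysis was possible because each group holds 1 library. The number of members was 2179; it was 570 with 50% of the peak covered by each list, 897 with the summit inside each list and 1050 with a −log10 q of at least 5, and the genes at members were 185, 251 and 483. Under these settings H3K4me3 was higher in OTX2low at 41.4%, 36.3% and 21.9% of members, and higher in OTX2high at 4.21% and 4.24% under the first pair. The median H3K4me3 log2 ratio was 0.76 under the cover and q settings, and the median H3K27me3 log2 ratio 0.18, 0.11 and 0.31. Recentring on the median gave 26.2% higher in OTX2low and 5.23% in OTX2high. The settings by background and by coding gene start, and the G-test on recovered reads, were added after seeing the data. Without members of raised background the shares were 13.1% and 8.99% and the H3K27me3 median 0.34. Members at coding gene starts alone numbered 1035, with shares of 14.5% and 11.2% and medians of 0.52 for H3K4me3 and 0.34 for H3K27me3. No median changed sign under these settings. Values stayed within the counting interval or within 1.5 times the count for the CpG ratio and with the wider and narrower gene windows. They also did so with joined H3K27me3 peaks, the start from OTX2low peaks and a read minimum. The G-test on recovered reads repeats the authors' own test, so its unchanged shares are no check of the calls.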
